A study of Mus musculus with 8 samples.

Results

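The genes described here were the 271 mouse zinc finger protein genes with a name of the form Zfp plus a number that were well expressed in N2a cells, a mouse neuroblastoma line. They were chosen by name and selected on a mean normalized count of at least 200 in input RNA, out of 340 genes with such a name and 16279 genes in the input table. The threshold fell between Zfp653, at a mean of 202.3, and Zfp273, at 198.6. Next to it lay Zfp112 (205.0) and Zfp560 (205.9) on the inside and Zfp455 (194.1) and Zfp764 (193.4) on the outside. The list of differential peaks of N6-methyladenosine (m6A), a methyl mark on mRNA, held 53 peaks on 46 of the 271 genes, of 2114 peaks in all.

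Cells were transfected with a small interfering RNA against Emg1, the gene of an enzyme that methylates 18S ribosomal RNA, or with a control one (siControl), and were collected 48 h later. Poly(A) RNA was sequenced as input and after immunoprecipitation (IP) with an m6A enrichment kit, with 2 libraries in each of the 4 groups: Emg1 knockdown input, control input, Emg1 knockdown m6A IP and control m6A IP. All groups were N2a cells, a single line. Separate cultures are not stated for the libraries, so p-values measure only the spread between them, which may be technical. The deposited tables give the authors' comparisons and no value per library, so no level per sample can be shown.

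Most Zfp proteins bind nucleic acids through zinc fingers, small loops in which cysteines and histidines hold a zinc ion. The largest class carries a KRAB domain in front of a row of fingers, and this domain recruits the corepressor Trim28, which brings the histone methyltransferase Setdb1 to the bound DNA and silences it, retroelements in particular. In genes of this class the fingers are typically encoded in a single long last exon, and long internal and last exons are where m6A is commonly found. Many of these genes lie in tandem clusters of young paralogs. Others have no KRAB domain and act on RNA, ribosomes or chromatin.

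Emg1 itself had an input log2 fold change of -1.73 ± 0.11 (SE) in the authors' deposited table (DESeq2 adjusted p = 3.37e-54). The table names no direction, and since Emg1 was the target, negative values are taken as lower after knockdown, which puts Emg1 at 30.2% of its control level. Of 12 sympathoadrenal and neuroendocrine markers, 11 had a mean of at least 100, and the exception was Dbh at 42.6. At least that mean was also reached by 2 of 7 fibroblast markers (Pdgfra at 1357 and Pdgfrb at 332), 1 of 7 leukocyte markers (Cd74 at 930) and 1 of 7 glial markers (Mbp at 688). Csf1r, Cd79a, Gfap and Mog had means under 10, and Ptprc, Itgam, Cd3e, Col1a2, Lum, Fap, Olig1 and Olig2 had no row in the table used here. Pdgfrb fell by 0.98 and Cd74 by 0.74 on the log2 scale in the authors' deposited table, while Pdgfra was at 0.16 ± 0.10 and Mbp at -0.25 ± 0.13 without passing, and the part of such cells or transcripts in the Zfp values was not tested. Fewer cells of a type and less RNA per cell cannot be told apart in these bulk samples.

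A short promoter sequence is shown first, because it recurred in the Zfp genes and the fallen genes below refer to it. RefSeq promoter windows (build GRCm38.p6, from 250 bases before to 50 bases after an annotated start) were matched by symbol for 221 of the 271 genes, in 271 windows. Among 191 words of 8 letters found on either strand in at least 15 of these windows, AATGTAGT had the highest share relative to all 32851 windows of the table, 10.3% against 1.16%. The word was chosen after this scan. Counted by gene, 28 of 221 Zfp genes (12.7%) held it, against 128 of 7686 other genes with a mean of at least 200 (1.67%) and 364 of 27025 genes in the table (1.35%). Each window below is written with the word in capitals and in the direction in which it reads AATGTAGT, so it may run against the gene. The first 5 genes fell in input RNA, Zfp84 rose, and the remaining 6 are examples from the 22 that did not pass. The printed windows thus do not give the shares of all 28 genes. Among the matches not printed, those on Zfp94, Zfp444, Zfp626 and Zfp949 and a second one on Zfp874a had letters other than TGGGA before the word.
Zfp383 (chr7:29908456-29908503, minus strand): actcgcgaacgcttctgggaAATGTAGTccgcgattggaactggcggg
Zfp189 (chr4:49521138-49521185, plus strand): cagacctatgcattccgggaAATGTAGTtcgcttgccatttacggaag
Zfp772 (chr7:7210039-7210086, plus strand): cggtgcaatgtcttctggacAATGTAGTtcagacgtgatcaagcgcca
Zfp954 (chr7:7121544-7121591, plus strand): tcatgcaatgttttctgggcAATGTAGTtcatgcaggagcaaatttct
Zfp260 (chr7:30095031-30095078, plus strand): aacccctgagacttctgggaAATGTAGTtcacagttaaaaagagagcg
Zfp84 (chr7:29768513-29768560, plus strand): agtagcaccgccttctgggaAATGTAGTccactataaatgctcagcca
Zfp60 (chr7:27731324-27731371, minus strand): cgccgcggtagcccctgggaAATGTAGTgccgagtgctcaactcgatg
Zfp317 (chr9:19621891-19621938, minus strand): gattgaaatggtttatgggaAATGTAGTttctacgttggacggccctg
Zfp790 (chr7:29815952-29815999, plus strand): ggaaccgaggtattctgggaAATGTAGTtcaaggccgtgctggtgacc
Zfp74 (chr7:29954085-29954132, minus strand): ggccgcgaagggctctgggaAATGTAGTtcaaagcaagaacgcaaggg
Zfp874a (chr13:67451626-67451673, minus strand): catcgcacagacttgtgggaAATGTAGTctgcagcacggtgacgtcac
Zfp874b (chr13:67484257-67484304, minus strand): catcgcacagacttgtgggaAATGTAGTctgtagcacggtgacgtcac

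The similarity reached beyond the 8 letters. In 23 of 31 matches the word was part of the run TGGGAAATGTAGT, while the neighbouring paralogs Zfp772 and Zfp954 had other letters before it. The word was most often close to the start: 22 of 31 matches lay within 100 bases upstream. It read in the direction of the gene in 20 matches and against it in 11. Of the 28 genes, 18 were on chromosome 7 and 5 on chromosome 13. Neighbouring paralogs can share promoter sequence, as the nearly equal windows of Zfp874a and Zfp874b show, so the 28 genes are not independent occurrences of the word. As background, TGGGAAATGTAGT read on the other strand resembles the element bound by Zfp143, a broad promoter-binding activator that is itself among the 271 genes. No binding was measured here, and a match is not a site.

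A second shared word, GTCACTCA, ranked 3 of 191 in the same scan, so its high share in these genes is not an independent finding. It was held by 23 of the 221 genes (10.4%), against 124 of 7686 other genes with a mean of at least 200 (1.61%). Both words were held by 0 of the 221. A TATAAA word was found in 15 of the 221 genes (6.79%) and in 592 of the 7686 others (7.70%). The letters CCGGAAG, the core of an Ets-factor element, were found in 52 (23.5%) and 1737 (22.6%), and CCAAT in 115 (52.0%) and 3383 (44.0%). In the whole promoter table the shares were 1.67% for GTCACTCA, 15.7% for TATAAA, 9.93% for CCGGAAG and 41.1% for CCAAT. All words were searched on both strands, and none of them contains another. Zfp windows held a median of 16 CpG pairs, against 22 in the others.

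In input RNA, few Zfp genes fell, while the share that rose was near that of all genes. By the authors' adjusted p under 0.05, 49 of the 271 rose (18.1%) and 15 fell (5.54%), beside 17.1% and 15.5% of the 12807 genes with an adjusted p, for which 32.6% changed in either direction. All 271 had an adjusted p. Among the 9974 other genes past the same mean threshold, 2079 rose (20.8%) and 1789 fell (17.9%). The median log2 fold change was 0.10 in the Zfp genes, with quartiles of -0.07 and 0.27, and 0.01 in the other genes, with quartiles of -0.18 and 0.20. Without regard to a test, 174 of the 271 values (64.2%) were above 0, against 51.8% of the others.

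**Figure D1:**
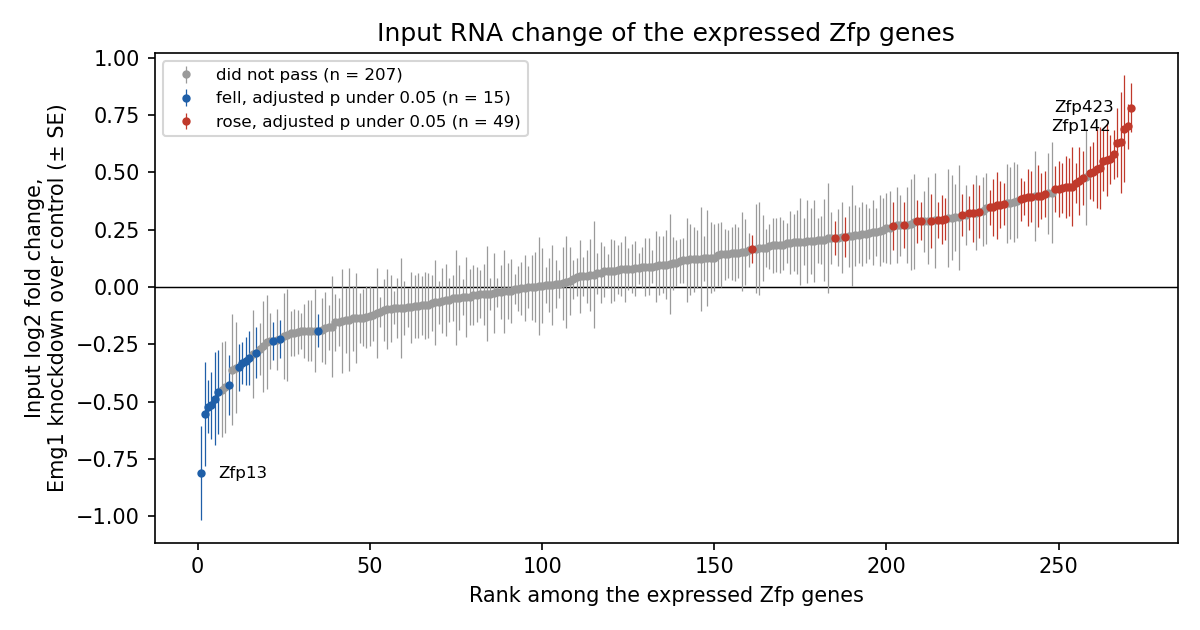
Input log2 fold change (knockdown over control) of each of the 271 Zfp genes in order of size, with bars of 1 SE from the authors' deposited table. Red points are the 49 genes that rose, blue points the 15 that fell and grey points the 207 that did not pass; the values run from -0.81 for Zfp13 to 0.78 for Zfp423.

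The changes were small. None of the 271 reached a log2 fold change of 1 in either direction, and the median absolute change of the 64 called genes was 0.40. Zfp mRNAs were less abundant than the rest, with a median mean count of 721 against 1493, and their fold changes were less precise, with a median SE of 0.13 against 0.10. Calls therefore have to be read at like abundance. Between means of 200 and 500, 6 Zfp genes rose and 4 fell of 78 (7.69% and 5.13%), beside 8.05% and 13.9% of 1552 other genes. Between 500 and 1000 the counts were 14 and 4 of 101 (13.9% and 3.96%), beside 14.1% and 16.0%. Between 1000 and 2000 they were 19 and 3 of 61 (31.1% and 4.92%), beside 21.5% and 17.5%. From 2000 on they were 10 and 4 of 31 (32.3% and 12.9%), beside 28.9% and 20.8%. The share that fell was thus below that of the others in all 4 bins, while the share that rose was above it in the 2 upper bins and slightly below it in the 2 lower ones. No test of the list was made.

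**Figure D2:**
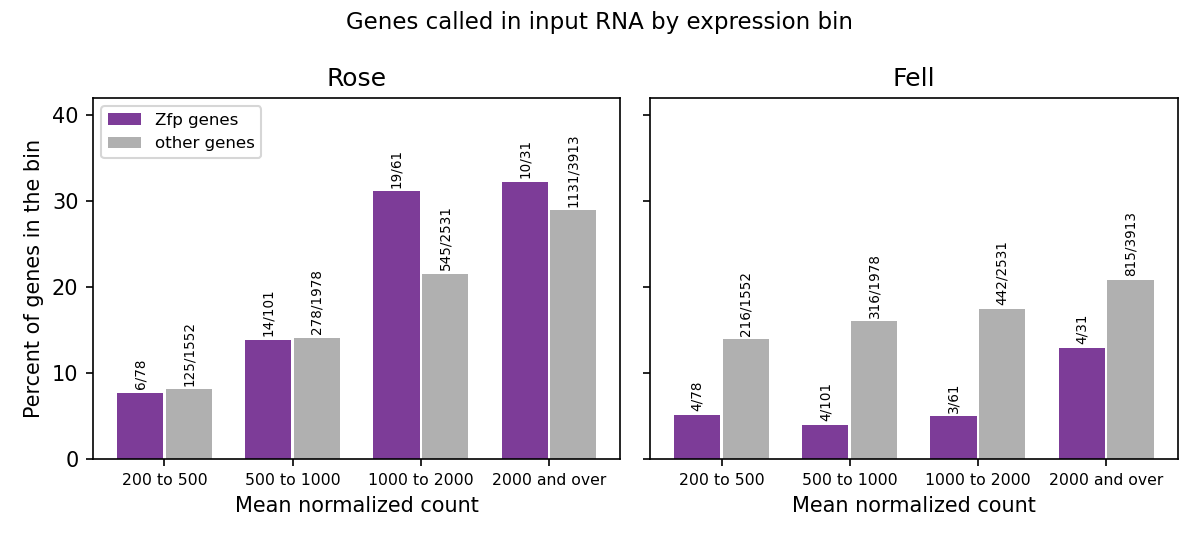
Percent of Zfp genes (purple) and of other genes (grey) that rose (left) or fell (right) in input RNA at the authors' adjusted p under 0.05, in 4 bins of mean normalized count; the numbers over the bars are genes called over genes in the bin. The purple bars for falling genes run from 3.96% to 12.9%, each below its grey neighbour.

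The largest rise was that of Zfp423 (chromosome 8, 87661810 to 87962053), a many-fingered transcription factor of neural progenitors and fat cell precursors. Its mean was 1170, and it rose by 0.78 ± 0.11 (log2, SE), to 172% of control, in the authors' deposited table (DESeq2 adjusted p = 8.47e-12). Zfp142 (chromosome 1, 74566331 to 74588133) followed at 0.70 ± 0.10, 162% of control, with an adjusted p of 7.89e-11 in the same DESeq2 table. These were the only 2 rises of at least 0.70 among the called members. Zfp367 rose by 0.58 ± 0.11 and Zfp219, a repressor known as a partner of Sox9 in cartilage, by 0.56 ± 0.11 in the authors' deposited table. Zfp865 rose by 0.63 ± 0.15, Zfp820 by 0.55 ± 0.13 and Zfp11 by 0.56 ± 0.16. Zfp628 at 0.69 ± 0.23, Zfp870 at 0.63 ± 0.22 and Zfp808 at 0.52 ± 0.18 completed the 10 largest rises in the authors' deposited table, all 3 with means between 232 and 378 and adjusted p between 0.013 and 0.0166.

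The largest fall was that of Zfp13 (chromosome 17, 23569846 to 23599755), by 0.81 ± 0.21 (log2, SE) to 57.0% of control in the authors' deposited table (DESeq2 adjusted p = 0.000587). Zfp788 on chromosome 7 had the smallest adjusted p of the falling members, 6.35e-05 by DESeq2, and fell by 0.52 ± 0.12. Zfp383 fell by 0.52 ± 0.15, Zfp954 by 0.43 ± 0.13, Zfp772 by 0.46 ± 0.18 and Zfp260, a partner of Gata4 in heart muscle, by 0.35 ± 0.10 in the authors' deposited table. Zfp277, which has been linked to Polycomb repression, fell by 0.33 ± 0.09, and Zfp955a by 0.32 ± 0.10. Zfp810 (-0.55 ± 0.23) and Zfp189 (-0.49 ± 0.20) were near the threshold, with adjusted p of 0.0466 and 0.0488 in the authors' DESeq2 table. Both were no longer called when the adjustment ran over every gene with a p-value.

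The promoter word AATGTAGT was unevenly spread over these calls. It was held by 5 of the 14 fallen genes with a promoter window (Zfp383, Zfp189, Zfp772, Zfp954 and Zfp260), by 1 of the 37 risen genes (Zfp84, at 0.33 ± 0.11 in the authors' deposited table) and by 22 of the 170 that did not pass. The 5 fallen genes had log2 fold changes between -0.52 and -0.35. The word GTCACTCA was in 0 of the 14 fallen genes, 4 of the 37 risen genes (10.8%) and 19 of the 170 that did not pass (11.2%), beside 10.4% of all 221. The median log2 fold change of the 28 holders of AATGTAGT was 0.06 and that of the 193 Zfp genes with a window without it 0.10, so most holders did not follow the 5. Among other genes with a mean of at least 200, 14 of 128 holders rose (10.9%) and 27 fell (21.1%), beside 21.1% and 17.7% of 7558 genes with a window without the word. Zfp143 itself was at -0.15 ± 0.13 (adjusted p = 0.375) in the authors' DESeq2 table. The 28 Zfp holders of AATGTAGT had a median mean count of 537 and a median SE of 0.15. The 193 without it had 721 and 0.13, and the calls were not compared at like abundance. These counts rest on words found by a scan of the same genes, and no test was made.

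**Figure D3:**
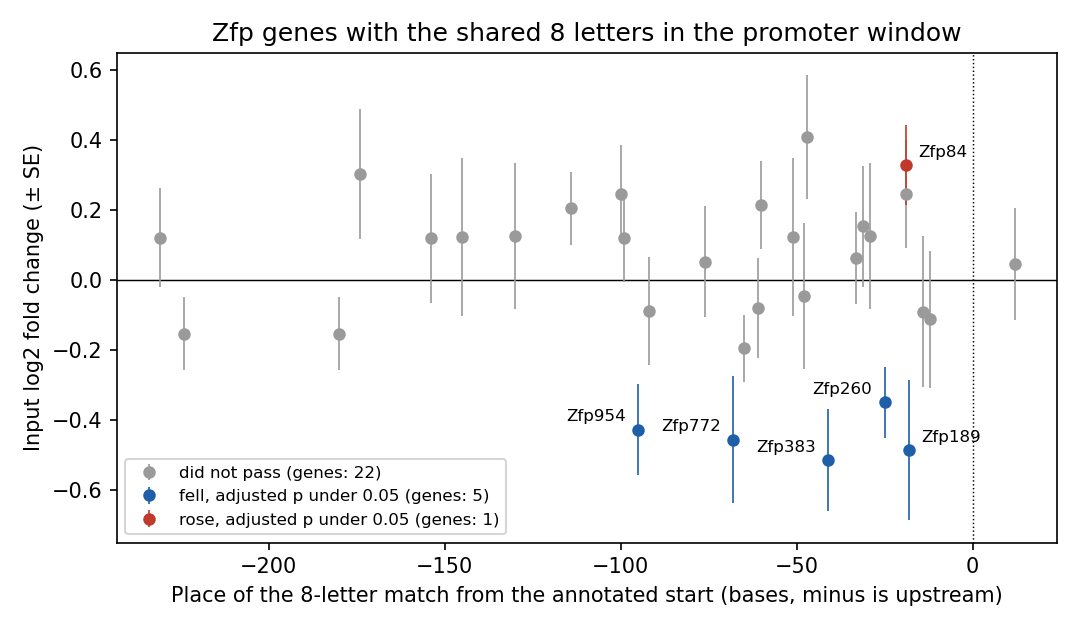
Place of each match to AATGTAGT relative to the annotated gene start (bases, minus is upstream) against the input log2 fold change of the gene, with bars of 1 SE; genes with more than 1 match have more than 1 point. The 5 fallen genes (blue) have matches between 95 and 18 bases upstream, and the risen gene Zfp84 (red) has its match 19 bases upstream.

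The members are described next by role, each small count to be read beside the 18.1% that rose and 5.54% that fell of all 271 and the 17.1% and 15.5% of all genes. Of 11 members that act on RNA or ribosomes 2 rose, a share near these, and 0 fell, with a median log2 fold change of 0.01. Zfp106, an RNA-binding protein needed by motor neurons and the most abundant Zfp transcript here with a mean of 8707, rose by 0.16 ± 0.06, and Zfp598, the ubiquitin ligase that senses collided ribosomes, by 0.21 ± 0.07 in the authors' deposited table (DESeq2 adjusted p = 0.0255 and 0.0156). Both factors of large ribosomal subunit maturation did not pass: Zfp622 was at 0.01 ± 0.10 and Zfp593 at -0.27 ± 0.11, the latter with an adjusted p of 0.056 in the authors' DESeq2 table. The spindle factor Zfp207 (mean 6456) was at -0.01 ± 0.07 and Zfp638 (mean 6372), which silences unintegrated retroviral DNA, at 0.09 ± 0.07 in the authors' deposited table. Zfp326, which links splicing to elongation, the double-stranded RNA binder Zfp346, Zfp385a, the pre-mRNA processing factor Zfp830 and Zfp36, which drives decay of AU-rich mRNAs, lay between -0.20 and 0.20 and did not pass. Its relative Zfp36l2, outside the name rule, rose by 0.62 ± 0.10 in the authors' deposited table.

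A list of silencing and pluripotency genes had 12 names, and of the 8 over the mean threshold 4 rose and 0 fell, with a median log2 fold change of 0.29. Zfp568, the KRAB repressor of a placental Igf2 promoter, rose by 0.38 ± 0.09 and Zfp462, a regulator of heterochromatin, by 0.35 ± 0.08 in the authors' deposited table. Zfp217, a corepressor component that has been reported to bind the m6A writer Mettl3, rose by 0.32 ± 0.07 (DESeq2 adjusted p = 9.49e-05 in the authors' deposited table), and Zfp281, of the pluripotency network, by 0.30 ± 0.09. The imprint keeper Zfp57 was at -0.03 ± 0.13 in the authors' deposited table and did not pass. The retroelement silencers Zfp809 and Zfp932 and the G9a recruiter Zfp644 lay between 0.19 and 0.27, also without passing.

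Of 10 activators and cofactors, 4 rose and 1 fell, with a median log2 fold change of 0.19, beside 0.10 for all 271. The 2 zinc finger partners of the Zmynd8 complex moved alike, Zfp592 at 0.39 ± 0.11 and Zfp687 at 0.29 ± 0.09 in the authors' deposited table. The SUMO ligase Zfp451 rose by 0.36 ± 0.09 and Zfp384 by 0.43 ± 0.12. The ubiquitin ligase Zfp91 fell by 0.19 ± 0.07 in the authors' deposited table. Zfp410, known for driving Chd4, Zfp131, Zfp148 and Zfp692 lay between 0.01 and 0.20 and did not pass.

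Of 7 members with a known part in neurons, 2 rose and 1 fell, with a median log2 fold change of 0.17. Beside Zfp423, the microcephaly gene Zfp335 rose by 0.43 ± 0.10, and Zfp609, a partner of the cohesin loader in cortical neurons, fell by 0.23 ± 0.08 in the authors' deposited table. Zfp292 (mean 5230) was at 0.01 ± 0.06 and Zfp365 (mean 3891) at -0.09 ± 0.07, and neither passed. Zfp503, a regulator of striatal development that was under the mean threshold at 147.6, rose by 1.06 ± 0.28. The neurotrophin receptor interactors Zfp110 and Zfp369 were at 0.22 ± 0.13 and 0.17 ± 0.19 in the authors' deposited table and did not pass.

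The genes of the chromatin machinery on which KRAB proteins draw were measured beside them. Of a list of 26 corepressor, heterochromatin and DNA methylation genes, 15 rose and 1 fell, with a median log2 fold change of 0.21. These genes had means between 513 and 19672, and of other genes with a mean of 2000 or more 28.9% rose and 20.8% fell. Dnmt1, the maintenance DNA methyltransferase, rose by 0.65 ± 0.05, and Dnmt3a, a de novo one, by 0.50 ± 0.07 in the authors' deposited table. Setdb1 rose by 0.39 ± 0.07, the histone methyltransferase Ehmt2 by 0.35 ± 0.07 and the remodeler Chd4 by 0.37 ± 0.05. Trim28 itself, named after its value was seen, rose by 0.26 ± 0.05 in the authors' deposited table (DESeq2 adjusted p = 3.14e-06). The 1 gene that fell was the deacetylase gene Hdac2, by 0.78 ± 0.06. The others did not pass. Of these Hdac1 (-0.15 ± 0.07), Dnmt3b, the other de novo methyltransferase (-0.06 ± 0.15), Cbx5 (-0.04) and Cbx3 (-0.02) were below 0. Mbd3, Fam208a, Pphln1, Morc3, Daxx and Atrx were between 0.05 and 0.13.

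Other zinc finger families are small, and their counts stand beside the 20.8% that rose and 17.9% that fell of the 9974 genes past the same mean. Of 34 Zbtb genes with a mean of at least 200, 11 rose and 1 fell, with a median of 0.24. Of 17 Zkscan and Zscan genes, which carry a SCAN domain, 4 rose and 1 fell (median 0.02), and of 14 Zc3h genes, whose fingers bind RNA, 8 rose and 0 fell (median 0.18).

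Position in the genome was described for all 271 genes, 269 matched to RefSeq by symbol and 2 by an older symbol. Chromosome 7 held 69 of them, chromosome 17 held 38 and chromosome 13 held 23. In 11 runs of at least 5 members, each no more than 500 kb from the next, lay 108 genes, of which 16 rose and 5 fell (14.8% and 4.63%), beside 33 and 10 of the 163 others (20.2% and 6.13%). Clustered genes had a lower median mean count, 559 against 915. The largest run, of 18 genes on chromosome 17 (21008941 to 23599755), had 5 risen genes and 1 fallen, Zfp13. The run of 15 genes on chromosome 7 (29768552 to 30169775) had 2 of each, with Zfp84 and Zfp568 up and Zfp383 and Zfp260 down. In a run of 9 genes farther along that chromosome (127233061 to 127885996) 5 rose and 0 fell, with a median of 0.36. Neighbours thus did not all move one way within the first 2 of these runs. Paralogs in such runs share sequence, and the sources used here do not give how reads that fit several of them were counted. Of all 271 spans, clustered ones included, 90 overlapped a different gene, and whether the counting used strand is not given either.

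The m6A peaks on Zfp genes were mostly of one sign. Of the 53 peaks, 42 had a positive and 11 a negative change as deposited, a positive share of 79.2%, beside 46.7% of 2008 peaks on other genes past the mean threshold. The group on top in this ratio is not stated, so a positive change stands for neither more nor less methylation after knockdown. Counted by gene, 38 of 271 (14.0%) had a positive-change peak and 10 (3.69%) a negative-change peak, and 2 of these, Zfp316 and Zfp617, had both. Over all 10245 genes past the mean threshold the shares were 8.93% and 9.59%. The share of genes with any listed peak, 46 of 271 (17.0%), was near the 18.2% of all these genes. Zfp genes were thus not listed more often than others, and the sign of their peaks was split differently. The listed shares were not compared at like abundance, and the median mean count was 721 in Zfp genes and 1493 in others. Peaks on 1 gene are not independent, and no test of the split was made.

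**Figure D4:**
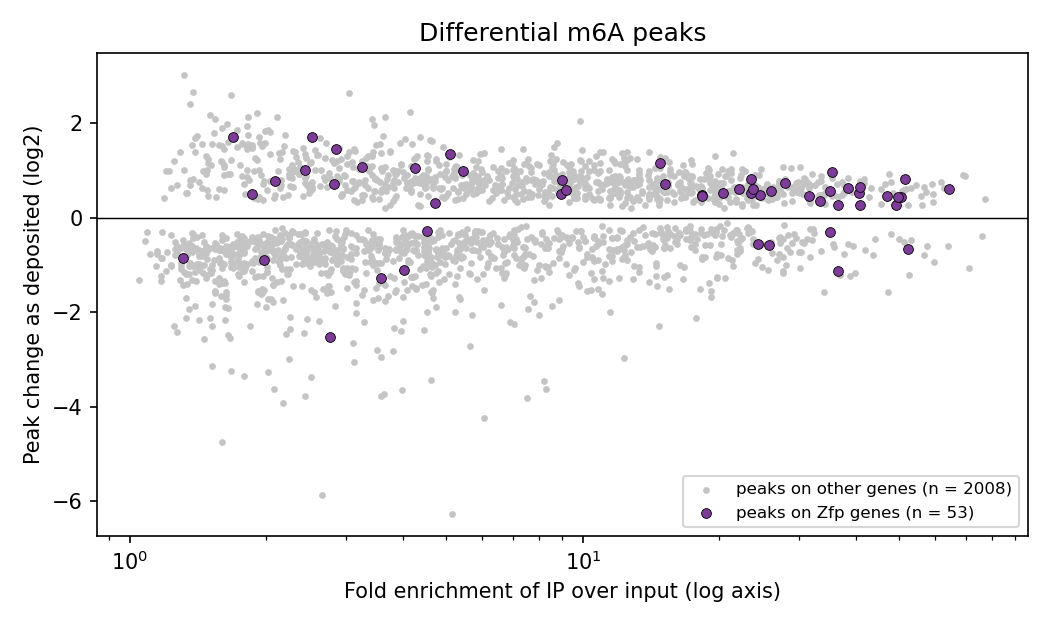
Change of each differential m6A peak as deposited (log2) against its fold enrichment of IP over input (log axis), both from the authors' deposited table, for 53 peaks on Zfp genes (purple) and 2008 on other genes with a mean of at least 200 (grey). Of the purple points 42 lie above 0 and 11 below, with the changes farthest from 0 at low enrichment.

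The peaks on Zfp genes were long and strongly enriched. Their median fold enrichment of IP over input was 22.1, with quartiles of 4.26 and 35.5, against a median of 5.40 on other genes. A peak can be split into blocks by introns, and the longest block had a median of 1318 bases on Zfp genes and 391 on others. It reached 1000 bases in 28 of 53 peaks (52.8%), against 11.8% of the others. The longest was the block of 3657 bases on Zfp748, in a peak of 1 block with a fold enrichment of 18.3 in the authors' deposited table. The midpoint of the whole peak lay at a median of 79.8% of the gene span from its start on Zfp genes and 78.9% on others. The midpoint of the longest block lay at a median of 85.9% of the gene span on Zfp genes and 84.0% on others, introns included. It was in the last 20% of the span in 34 of 53 peaks (64.2%) and in the first 20% in 4 (7.55%), against 53.9% and 17.4% on other genes. The other zinc finger families had few peaks. Median enrichment and longest block were 14.95 and 650 bases for 4 Zbtb peaks, and 14.2 and 806 for 3 Zkscan and Zscan peaks. For 5 Zc3h peaks they were 3.15 and 117. Which exon a peak covered was not analysed here, since no exon coordinates or genome sequence were used.

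**Figure D5:**
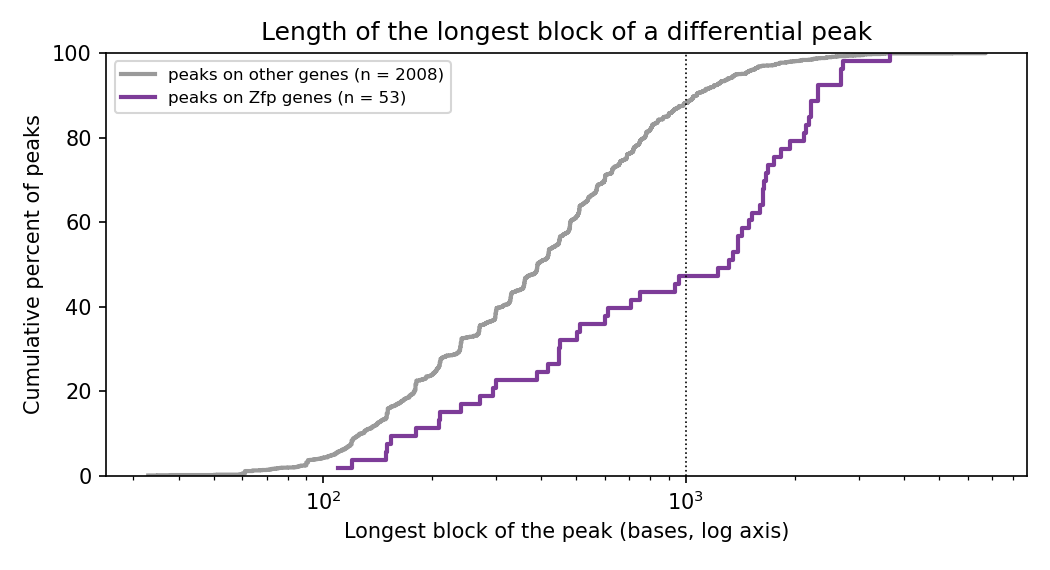
Cumulative percent of differential peaks by the length of their longest block (bases, log axis), for 53 peaks on Zfp genes (purple) and 2008 on other genes (grey). At the dotted line of 1000 bases, 52.8% of the purple and 11.8% of the grey peaks still lie to the right.

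The positive share also differed by enrichment and length among peaks on other genes. The split was therefore set beside peaks of like enrichment or length, in classes formed after the data were seen. Among peaks with a fold enrichment of at least 20, 23 of 28 on Zfp genes had a positive change (82.1%), against 180 of 275 on others (65.5%). Among those that also had a longest block of at least 1000 bases the counts were 22 of 25 (88.0%) and 74 of 121 (61.2%). Between an enrichment of 5 and 20, all 9 Zfp peaks were positive, against 55.7% of 777. Under 5 the counts were 10 of 16 (62.5%) and 325 of 956 (34.0%). The positive share was higher on Zfp genes in each class. The classes do not match abundance or place in the gene. On other genes, the median input mean was 1529 for positive-change and 3586 for negative-change peaks. Of these peaks, 70.3% and 39.5% had the longest block in the last 20% of the span. Peaks on Zfp genes had a median input mean of 1216, against 2348 on others. The part of abundance and place in the split was not tested.

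The long peaks had modest changes. Zfp472, with the highest enrichment among them at 64.2, had a change of 0.61 in the authors' deposited table. Zfp52 (52.1) had a negative one of -0.67 and Zfp955a (51.3) one of 0.83. Zfp41 had a peak of 2605 bases over 2 blocks with an enrichment of 35.5 and a change of 0.96 (chromosome 15, 75618837 to 75625300), the highest change among peaks with an enrichment of at least 20, and a second, shorter one upstream of it at 0.99. Zfp292 (50.5), Zfp871 (49.6) and Zfp644 (49.0) had changes of 0.45, 0.45 and 0.28. Zfp644 carried the peak with the most blocks, 6, and a summed length of 4103 bases. The median absolute change of all 53 peaks was 0.61, against 0.74 on other genes.

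The largest positive changes were in short, weakly enriched peaks. Zfp869, at 1.71, had a peak of 120 bases with an enrichment of 1.69, and Zfp318, known for permitting IgD expression in B cells, at 1.70 one of 181 bases with an enrichment of 2.53 in the authors' deposited table. Zfp260 followed at 1.45 (241 bases, enrichment 2.85), Zfp316 at 1.35 (300 bases, 5.08) and Zfp384 at 1.15 (448 bases, 14.8). Zfp553 at 1.07, Zfp672 at 1.06 and Zfp346 at 1.01 completed the 8 highest, with enrichments between 2.43 and 4.26. Zfp869 and Zfp260 also had a long peak each, at 0.52 and 0.73, so both peaks of either gene had the same sign. The same held for Zfp850, at 0.57 and 0.72 in the authors' deposited table.

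The 11 negative-change peaks were of a mixed kind. The lowest was on Zfp617 (chromosome 8, 71933648 to 71933856), at -2.52 with an enrichment of 2.77, and the neighbouring peak on the same gene was at 0.77 (enrichment 2.09) in the authors' deposited table. Zfp212 at -1.28, Zfp771 at -1.11, Zfp655 at -0.89 and Zfp330 at -0.85 had enrichments between 1.31 and 4.02. The last 3 of these reached into the promoter window at the annotated start of the gene, as did 2 positive-change peaks, on Zfp637 and Zfp740. A second peak on Zfp330, far downstream, was at -0.27. Zfp316 again carried both signs, with -1.13 at an enrichment of 36.6 and a length of 600 bases. Only 3 negative-change peaks had a longest block of at least 1000 bases: the paralogs Zfp51 and Zfp52 on chromosome 17, at -0.58 and -0.67, and Zfp7, at -0.29 in the authors' deposited table. These 3 were strongly enriched, Zfp51 at 25.8, Zfp52 at 52.1 and Zfp7 at 35.2. Zfp516, with a longest block of 958 bases and an enrichment of 24.4, was at -0.55.

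The peak table and the input table compare the same conditions and may share libraries, so their values are set side by side without a relation being drawn. Zfp788 was at -0.52 ± 0.12 (log2, SE) in input and had a peak change of 0.81, Zfp383 at -0.52 ± 0.15 and 0.61, and Zfp954 at -0.43 ± 0.13 and 0.59 in the authors' deposited tables. Zfp260 was at -0.35 ± 0.10 in input, with peaks at 0.73 and 1.45. The paralogs Zfp955a and Zfp955b, neighbours on chromosome 17, were at -0.32 ± 0.10 and -0.29 ± 0.11 in input, with peaks at 0.83 and 0.65; both calls are uncertain where reads could fit either gene. Zfp639 was at -0.31 ± 0.12 with a peak at 0.53, and Zfp280b at -0.24 ± 0.08 with one at 0.49. These were the 8 of 15 fallen genes with a listed peak, all with a positive change. Of the 49 risen genes 7 had one. A listed peak was on 46 of all 271 Zfp genes (17.0%) and on 18.2% of all genes past the mean threshold. Whether these shares differ was not tested. Zfp516 was at 0.45 ± 0.09 with a peak at -0.55, and Zfp51 at 0.44 ± 0.17 with one at -0.58. Zfp384 was at 0.43 ± 0.12 with a peak at 1.15, Zfp672 at 0.29 ± 0.11 with one at 1.06 and Zfp553 at 0.27 ± 0.11 with one at 1.07 in the authors' deposited tables. Zfp316 was at 0.43 ± 0.11 with peaks at -1.13 and 1.35, and Zfp330 at 0.22 ± 0.09 with peaks at -0.85 and -0.27. Zfp330 and Zfp553 were no longer called when the fold changes were centred or the adjustment ran over every p-value. The gene with the largest absolute change in input, Zfp13, and the 10 genes with the largest rises had no listed peak. Since only 17.0% of the 271 genes had one, so few genes cannot show a difference from that share.

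By role, each named group had 1 gene with a listed peak, beside 18.2% of all genes past the mean threshold. Of the 11 RNA and ribosome members only Zfp346 had one, of the 8 silencing members only Zfp644, of the 10 activators only Zfp384 and of the 7 neural members only Zfp292, each with a positive change. The corepressor list of 26 genes had 9 listed peaks, 2 of them on Chd4. On other genes past the mean threshold, 1070 of 2008 peaks were negative. Of the 9 corepressor peaks, those on Setdb1 (0.42) and Atf7ip (0.56), a Setdb1 cofactor, were positive in the authors' deposited table. The remaining 7, among them 2 on Chd4 at -1.34 and -0.48, were negative. Apart from the peak on Ehmt1 (enrichment 17.2), the negative ones were weakly enriched, between 1.37 and 2.42. The Chd4 peak at -1.34 had 61 bases and an enrichment of 1.4.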

How the data were processed

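Input RNA and m6A IP RNA of N2a cells were measured in 8 libraries. The mm10 build and the tools Trimmomatic, HISAT2 and DESeq2 are named per the submitters' processing notes. The sources used here do not give the counter, annotation, peak caller, pooling or versions. Per the file headers, the mean count is a signal, the mean normalized count of the authors' DESeq2 fit. The log2 fold change, its SE and the log2 peak change were deposited by the authors, as were the p-value, the adjusted p-value and the Wald statistic, a score. Fold enrichment is a ratio deposited by the authors, and the log10 false discovery rate of a peak change is a score deposited by them. No value per library is held, so depth is unknown and no model was fitted; calls are the authors' adjusted p under 0.05.

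The members and lists were chosen with earlier results of these data known. Named genes were Emg1, the 5 highest means, the 10 largest rises and falls, role list members, genes with several peaks or the 8 highest and lowest peak changes, genes at the threshold and 6 corepressors with the smallest adjusted p; others were named after their values were seen. Protein features were planned and were not analysed here. Alternatives were other thresholds, adjustment over every p-value, centring, other means and names, stricter peaks and other peak midpoints. The code that adjusts p-values and counts calls was tested on simulated data; the authors' own calls were not tested. Figures were drawn with matplotlib 3.10.9, and values computed with pandas 2.3.3, numpy 2.4.6 and scipy 1.17.1 in Python 3.11.15.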

Additional observations from a re-analysis of the deposited data

How the results depend on the processing

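No paired analysis was possible because the tables hold no values per library, and for the same reason no library could be left out. The alternative limited to members with several zinc fingers was not run, since protein sequences were not used here. The counts of 49 risen and 15 fallen Zfp genes became 31 and 7 at an adjusted p under 0.01, and 12 and 4 when an absolute log2 fold change of at least 0.5 was also asked. They stayed within 1.5 times under an adjusted p under 0.1, adjustment over every gene with a p-value, subtracting the median log2 fold change of genes past the mean threshold (0.01), a mean of at least 100 or 500 and all names that start with Zfp, and the median log2 fold change stayed between 0.08 and 0.10 under all of these. Among named genes, centring reversed the sign of 3 uncalled values near 0, Zfp292 (-0.00067), Zfp622 (-0.0013) and Zfp131 (-0.0058); it ended the calls of Zfp330 and Zfp553 and brought Zfp593 and Zfp655 under the threshold. Adjustment over every p-value ended the calls of Zfp810, Zfp189, Zfp330 and Zfp553. With peaks limited to an enrichment of at least 20, an alternative chosen after seeing the data, 28 genes had a peak, with 23 positive and 5 negative changes; the positive share of all other peak alternatives lay between 75.0% and 83.7%. Depth is unknown, and the SE limits calls most under a mean of 500, where its median was 0.19.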
